A study of Homo sapiens with 24 samples.

Results

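The genes described here encode the actin cytoskeleton and the contractile apparatus of smooth muscle. They are 34 genes named by symbol: actins, myosin chains, tropomyosins, calponins and transgelins, actin crosslinkers, adaptors of focal adhesions and stress fibres, and markers of smooth muscle. All 34 were found among the 57820 genes of the table, and all 34 passed the filter on low values. They were chosen by name and not by a cut-off on their values, but with earlier results of these data known.

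RNA was measured by mRNA sequencing in HUES6, a line of human embryonic stem cells, grown in FTDA medium. The line was wild type (WT) or labelled as a knockout of RBPMS (KO), an RNA-binding protein. Libraries of 0 h were untreated controls. Those of 3, 6 and 48 h came from cells driven towards mesoderm with 1.5 ng/ml BMP4, a growth factor, and 1.5 µM CHIR, which switches on WNT signalling by blocking GSK3. Each of the 8 groups had 3 libraries. The labels do not say how the knockout was made, how many clones it represents or whether each library is a culture of its own, so p-values measure the spread between these libraries, which may be technical.

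Actin monomers assemble into filaments, which myosin pulls on once its regulatory light chain is phosphorylated by a light chain kinase. Monomeric actin also holds the coactivators MRTFA and MRTFB out of action. When filaments grow, these coactivators join the transcription factor SRF on a DNA element called the CArG box, which many genes of actin and contractile proteins carry. In stem cells the same proteins form cortical filaments and stress fibres, while some members (MYH11, SMTN, LMOD1, ACTA2) mark differentiated smooth muscle.

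The CArG box is shown first because many genes of actin and contractile proteins carry it. Promoters, taken as the 250 bases before and 50 bases after a gene start, came from RefSeq on GRCh38.p14 and were found for 30 members with 55 starts. ACTB, MYL9, MYH11 and TAGLN were not matched. The box was searched on both strands by its consensus, which reads the same on either strand. It was present in 9 of 55 member promoters (16.4%) and in 454 of 35116 promoters of the whole table (1.29%). By gene, 9 of 30 matched members (30%) and 438 of 27305 genes (1.6%) had at least 1 box. The 9 members were ACTG2, MYLK, SVIL, ACTN1, ACTG1, CNN2, TPM4, SMTN and FLNA. The windows below run from 130 to 31 bases before the start, 5′ to 3′ on the gene's strand, with the CArG box in capitals. They show 4 genes that rose after induction (ACTG2, ACTG1, CNN2, FLNA) and 1 that fell (MYLK).
ACTG2, chr2:73892878-73892977, plus strand: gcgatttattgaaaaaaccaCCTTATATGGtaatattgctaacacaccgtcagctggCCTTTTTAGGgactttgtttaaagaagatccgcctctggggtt
ACTG1, chr17:81512830-81512929, minus strand: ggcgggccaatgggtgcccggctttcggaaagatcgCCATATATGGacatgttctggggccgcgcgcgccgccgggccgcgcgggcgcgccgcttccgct
CNN2, chr19:1026478-1026577, plus strand: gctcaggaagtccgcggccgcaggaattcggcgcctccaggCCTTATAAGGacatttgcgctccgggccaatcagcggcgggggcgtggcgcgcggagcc
FLNA, chrX:154374665-154374764, minus strand: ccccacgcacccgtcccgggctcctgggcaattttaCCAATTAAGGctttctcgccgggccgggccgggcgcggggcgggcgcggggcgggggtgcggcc
MYLK, chr3:123620579-123620678, minus strand: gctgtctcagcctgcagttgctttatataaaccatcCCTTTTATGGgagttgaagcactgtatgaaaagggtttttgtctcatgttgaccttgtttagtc
The box began 94 bases before the start in ACTG1, FLNA and MYLK, 89 bases before it in CNN2, and 110 and 73 bases before it in ACTG2. The MYLK window lies at an internal start within that gene, and the gene counts pool all of its starts. In WT, 6 of the 9 members with a box rose and 2 fell at 3 h, as did 14 and 3 of the 21 matched members without one. A match is a description of the sequence, and no binding was measured.

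The libraries held 29896358 to 50451908 reads on genes. At that depth, 3 reads, the limit that a count of 0 allows, correspond to 0.0595 to 0.1003 CPM, the unit of the gene table (reads on a gene scaled to a common library total), and these limits cover counting error only. All 6 markers of pluripotent stem cells were at 1 CPM or more in every group, summing to 4910 to 5940 CPM at 0 h and 2940 to 4370 CPM at 48 h. RBPMS had no reduced level at 0 h under the KO label: its mean was 155 ± 2.6 CPM against 135 ± 17.2 in WT (SD, n = 3 each), a log2 difference of 0.25 (limma, adjusted p = 0.0392). Its level therefore does not check the genotype label. Libraries of 3 groups stood apart from their mates. The first WT library of 0 h correlated with its mates at 0.975 to 0.978 (the mates at 0.996), the third KO library of 3 h at 0.988 to 0.989 and the third WT library of 48 h at 0.991. Counts are given with and without these 3 libraries.

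The members show how these libraries differed. In the third KO library of 3 h, 22 of the 34 members were above both mates and 8 below both. The light chains MYL6, MYL12B and MYL12A were lowest against the mean of their mates (log2 -1.04, -0.81 and -0.69) and MYH9, FLNA and FLNC highest (0.92, 0.89 and 0.87). These light chains have 1932 to 4609 bases of exon, and MYH9, FLNA and FLNC 9012 to 10585. What exon length contributes to the differences was not tested. In the first WT library of 0 h, ACTG2 and TAGLN were below both mates (log2 -1.26 and -1.12) and MYH11 and LMOD1 above both (1.24 and 1.06).

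**Figure D1:**
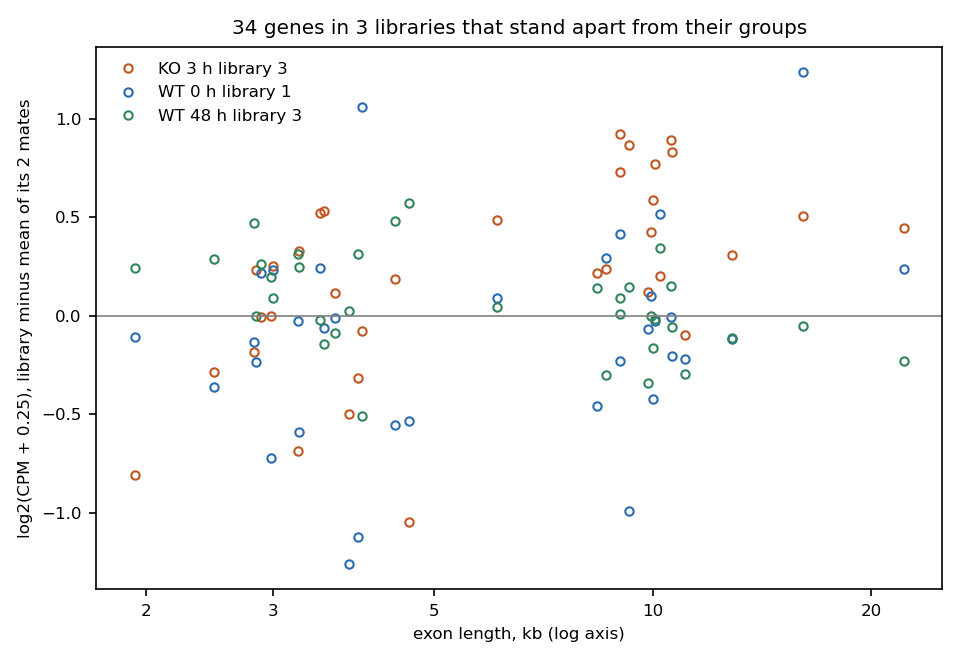
Each circle is 1 of the 34 genes in 1 of the 3 libraries that stood apart. The vertical axis is its log2(CPM + 0.25) minus the mean of the other 2 libraries of the group, and the horizontal axis is the gene's exon length in kb on a log scale. In the third KO library of 3 h MYH9 is highest at 0.92 and MYL6 lowest at -1.04. In that library genes with at least the exon length of ACTN4 (6098 bases) lie above 0, except PDLIM5 (-0.10). Shorter genes lie on both sides of 0.

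Levels between genes are compared as CPM per kb of exon in untreated WT cells. The cytoplasmic actins were highest, ACTG1 at 877 ± 83.9 and ACTB at 575 ± 36.2 CPM per kb (mean ± SD, n = 3). The next member, the filament crosslinker FLNA, had 105 ± 2.9 CPM per kb. FLNA and CNN2, a widely expressed calponin (99.4 ± 3.16), did not differ beyond their spread, nor did CNN2 and the light chain MYL6 (89.6 ± 17.8). At the other end were the markers of differentiated smooth muscle: ACTG2 (1.69 ± 0.786 CPM per kb), MYLK (0.983 ± 0.109), ACTA2 (0.87 ± 0.274), SMTN (0.808 ± 0.181), LMOD1 (0.698 ± 0.351) and MYH11 (0.108 ± 0.067). From ACTG2 to LMOD1 neighbours overlapped in their spread. TAGLN at 29.2 ± 12.1 and CNN1 at 5.66 ± 0.537 CPM per kb, also used as smooth muscle markers, ranked 15 and 25 of 34. Reads that fit both of a pair of near-identical genes, such as ACTB and ACTG1 or MYL12A and MYL12B, could be split or dropped by the counting, which the sources used here do not describe.

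**Figure D2:**
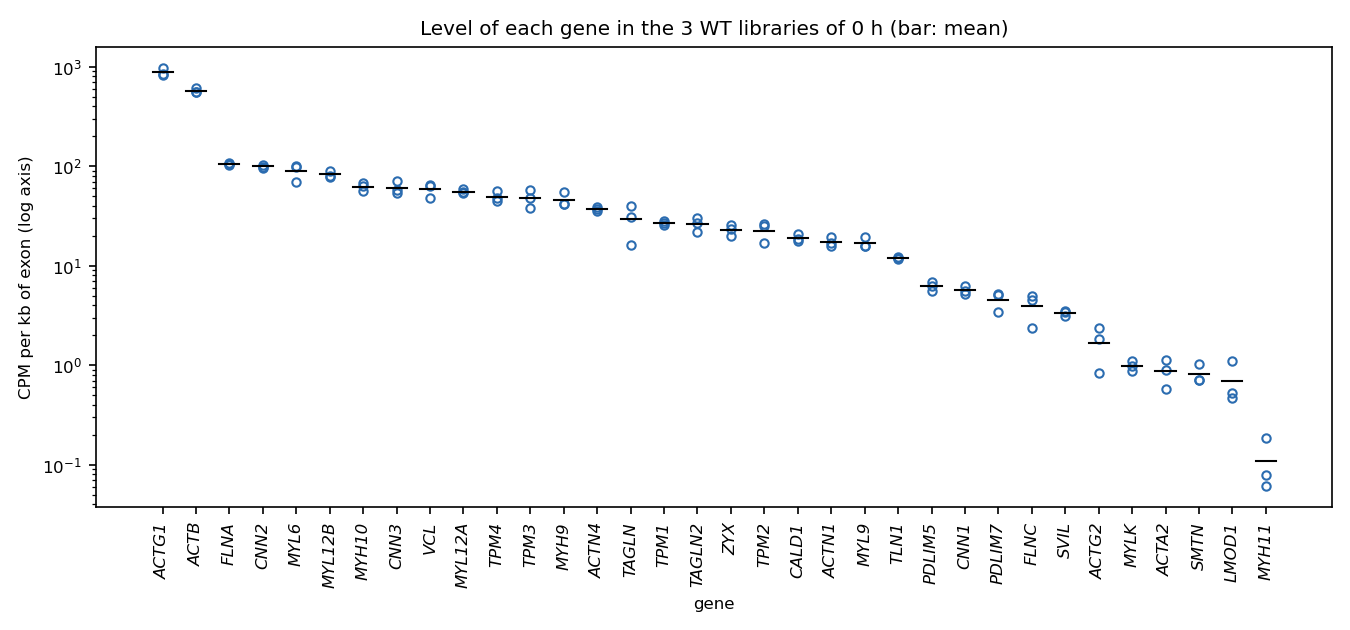
Level of each of the 34 genes in the 3 untreated WT libraries, in CPM per kb of exon on a log axis, ordered by the mean (bar). The cytoplasmic actins ACTG1 (877) and ACTB (575) stand above the rest, and MYH11 (0.108) is lowest.

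In WT cells most members were higher 3 h after induction than before it. Of the 34, 23 rose and 5 fell at 3 h, with a median log2 difference of 0.54 against 0.01 over all genes. Of all genes, 28.6% were called higher and 27.1% lower. At 6 h 25 members rose and 5 fell (median 0.67 against 0.00 over all genes), with 31.1% of all genes higher and 31% lower. Both hours were compared with the same 0 h libraries. In bulk libraries, fewer cells of a type and less RNA per cell cannot be told apart. Without the 3 libraries that stood apart, 33 of 34 members were called at 3 h, where 67.1% of all genes were, and 33 at 6 h, where 71.1% were.

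The largest early rise among the adaptors was that of ZYX (zyxin), which gathers at focal adhesions and stretched stress fibres. Its WT libraries had 89.3, 82.3 and 69.4 CPM at 0 h, 222, 217 and 203 CPM at 3 h, and 261, 275.5 and 254 CPM at 6 h. No library of 3 or 6 h overlapped those of 0 h. The log2 difference was 1.52 (SE 0.11) at 3 h and 1.85 (SE 0.11) at 6 h (limma, adjusted p = 1.56e-10 and 4.22e-12). PDLIM7, a PDZ and LIM protein of stress fibres, rose by 0.73 and 1.37, and VCL (vinculin), which ties adhesions to actin, rose by 0.62 and 0.93. TLN1 (talin), which activates integrins, rose by 0.52 and 0.30, and the later of these calls was lost when any 1 of the 6 libraries was left out (adjusted p up to 0.0873). Of the 5 adaptors PDLIM5 fell, with log2 differences of -0.43 and -0.29.

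Both cytoplasmic actins rose. In WT, ACTB had 1963, 2171 and 1939 CPM at 0 h, 3440, 3454 and 3462 at 3 h, and 4218, 4800 and 4068 at 6 h. Its groups did not overlap, and its log2 differences were 0.87 and 1.24 (limma, adjusted p = 3.19e-06 and 1.37e-08). ACTG1 rose by 0.56 and 0.69.

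The calponins and transgelins, which bind along filaments, rose together with them. CNN2 had 360, 375 and 352 CPM at 0 h, 681, 655 and 674 at 3 h, and 775, 796 and 759 at 6 h in WT. TAGLN2 had 54.9, 75.3 and 66.3 CPM at 0 h, 140, 145 and 147 at 3 h, and 131, 145 and 141 at 6 h. In both genes every induced library was above every library of 0 h. Their log2 differences were 0.99 (SE 0.07) and 1.23 for CNN2 and 1.24 (SE 0.10) and 1.23 for TAGLN2 (limma, adjusted p at 3 h 1.03e-10 and 7.9e-10). CNN3 rose by 0.41 and 0.58.

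Of the tropomyosins, coiled coils that lie along the filament and govern myosin's access to it, TPM2, TPM3 and TPM4 rose and TPM1 fell. TPM4 had 485, 409 and 383 CPM at 0 h, 748, 748 and 742 at 3 h, and 777, 786 and 798 at 6 h in WT. TPM1 had 329, 350 and 364 CPM at 0 h, 208.8, 208.6 and 201.3 at 3 h, and 241, 243 and 241 at 6 h. Neither gene's early libraries overlapped those of 0 h. The log2 differences were 0.92 (SE 0.09) and 1.03 for TPM4, and -0.65 (SE 0.08) and -0.39 for TPM1 (limma, adjusted p at 3 h 1.91e-08 and 1.96e-07). The rise of TPM2 at 3 h (0.36) was lost when WT library 1 of 0 h, or WT library 1 or 2 of 3 h, was left out (adjusted p up to 0.194), and was 0.17 without the 3 libraries that stood apart.

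Markers of smooth muscle moved in both directions. TAGLN (transgelin, also called SM22) had WT values of 63.5, 158 and 122 CPM at 0 h, 215, 223 and 208.5 at 3 h and 256, 266 and 277 at 6 h. The lowest value was that of the library that stood apart at 0 h. TAGLN rose by 1.11 at 3 h and 1.45 at 6 h on the log2 scale, and by 0.74 and 1.085 without the 3 libraries. ACTG2, the enteric smooth muscle actin, rose by 0.78 (not called on the 6 libraries of the comparison alone, adjusted p = 0.0987) and 1.15, and by 0.37 and 0.74 without the 3 libraries. ACTA2, the vascular actin, was not called (-0.24 and -0.16), but without the 3 libraries it was called lower at both hours (-0.47 and -0.39, adjusted p = 0.011 and 0.0274). CALD1 (caldesmon), which blocks myosin from filaments, rose by 0.35 at 3 h and 0.27 at 6 h, where it was not called on the deposited CPM without scaling factors (adjusted p = 0.188).

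LMOD1 (leiomodin), which nucleates actin filaments in smooth muscle, and MYLK, the light chain kinase, fell. In WT, LMOD1 had 4.38, 1.85 and 2.09 CPM at 0 h, 1.11, 0.982 and 1.03 at 3 h, and 0.402, 0.436 and 0.604 at 6 h. MYLK had 24.2, 19.4 and 21.7 CPM at 0 h, 9.53, 8.93 and 9.09 at 3 h, and 9.69, 9.46 and 9.99 at 6 h. All of these early libraries were below those of 0 h. The log2 differences were -1.05 (SE 0.26) and -1.86 for LMOD1 and -1.12 (SE 0.12) and -1.01 for MYLK (limma, adjusted p at 3 h 0.0014 and 4.86e-08). The difference of LMOD1 at 3 h was -0.69 without the 3 libraries.

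Of the 4 light chains, 3 (MYL9, MYL12A and MYL12B) rose at 3 and 6 h, while MYL6, the essential light chain, was not called (0.40 and 0.42). The non-muscle heavy chains parted: MYH9 rose by 0.50 and 0.54, while MYH10 had -0.27 at 3 h, not called, and fell by 0.45 at 6 h. MYL6 was called higher at both hours (0.23 and 0.25) and MYH10 lower at 3 h (-0.34) without the 3 libraries. The MYH9 call at 3 h was lost without WT library 3 of 0 h (adjusted p = 0.0561). Among the crosslinkers, ACTN1, ACTN4 and FLNA rose at 3 h by 0.73, 0.56 and 0.58 and at 6 h by 1.06, 0.65 and 0.69. FLNC, the filamin of muscle, was called at 6 h only (1.16, and 0.37 at 3 h). SVIL (supervillin) fell by 0.24 at 3 h, a call lost without WT library 1 or 2 of 0 h or any 1 library of 3 h (adjusted p up to 0.134).

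By 48 h fewer members differed from 0 h. In WT 15 rose and 4 fell (median 0.31 against 0.00 over all genes), where 26.8% of all genes were higher and 26.5% lower. Leaving out the 3 libraries, 22 members were called, where 63.8% of all genes were. CNN2 had 381, 404 and 369 CPM, a log2 difference of 0.06 from 0 h that was not called, and ACTN1, VCL, TPM2, TPM3 and CNN3 were not called either. Without the 3 libraries TPM2, ACTG2 and ACTA2 were called lower (-0.37, -0.75 and -0.71), and FLNA and MYH9 higher (0.25 and 0.26). With all libraries none of these was called. ZYX stood at 103, 108 and 104 CPM, 0.38 above 0 h, a call lost without WT library 3 of 0 h (adjusted p = 0.0643).

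TPM1, PDLIM5 and SVIL had the smallest adjusted p at 48 h. TPM1 had 114, 119 and 108 CPM in WT, against 329 to 364 at 0 h, a log2 difference of -1.63 (SE 0.08; limma, adjusted p = 2.34e-14). PDLIM5, lower at 3 and 6 h, rose to 125, 125 and 102 CPM from 62.4, 69.9 and 75.6 at 0 h (log2 0.73, SE 0.08, adjusted p = 4.04e-08). SVIL, which links actin and myosin to the membrane, rose to 62.7, 55.5 and 59 CPM from 35.1, 34.2 and 31.3 (log2 0.79, SE 0.10, adjusted p = 5.64e-07). The libraries of 48 h and 0 h did not overlap in any of these 3 genes.

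MYH11, the heavy chain of smooth muscle myosin, fell to 0.349, 0.284 and 0.295 CPM at 48 h in WT from 2.98, 0.974 and 1.28 CPM at 0 h (log2 -1.70, SE 0.25, adjusted p = 6.56e-06). Its highest value was in the library that stood apart. SMTN (smoothelin) rose by 0.67 in WT at 48 h. The fall of LMOD1 at 48 h (-0.71) was lost without WT library 1 of 0 h or WT library 3 of 48 h (adjusted p up to 0.197), and the rise of MYL9 (0.35) without WT library 3 of 0 h or of 48 h (adjusted p up to 0.151). MYL12B (0.34) was lost without WT library 1 or 3 of 0 h or library 3 of 48 h (adjusted p up to 0.195).

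**Figure D3:**
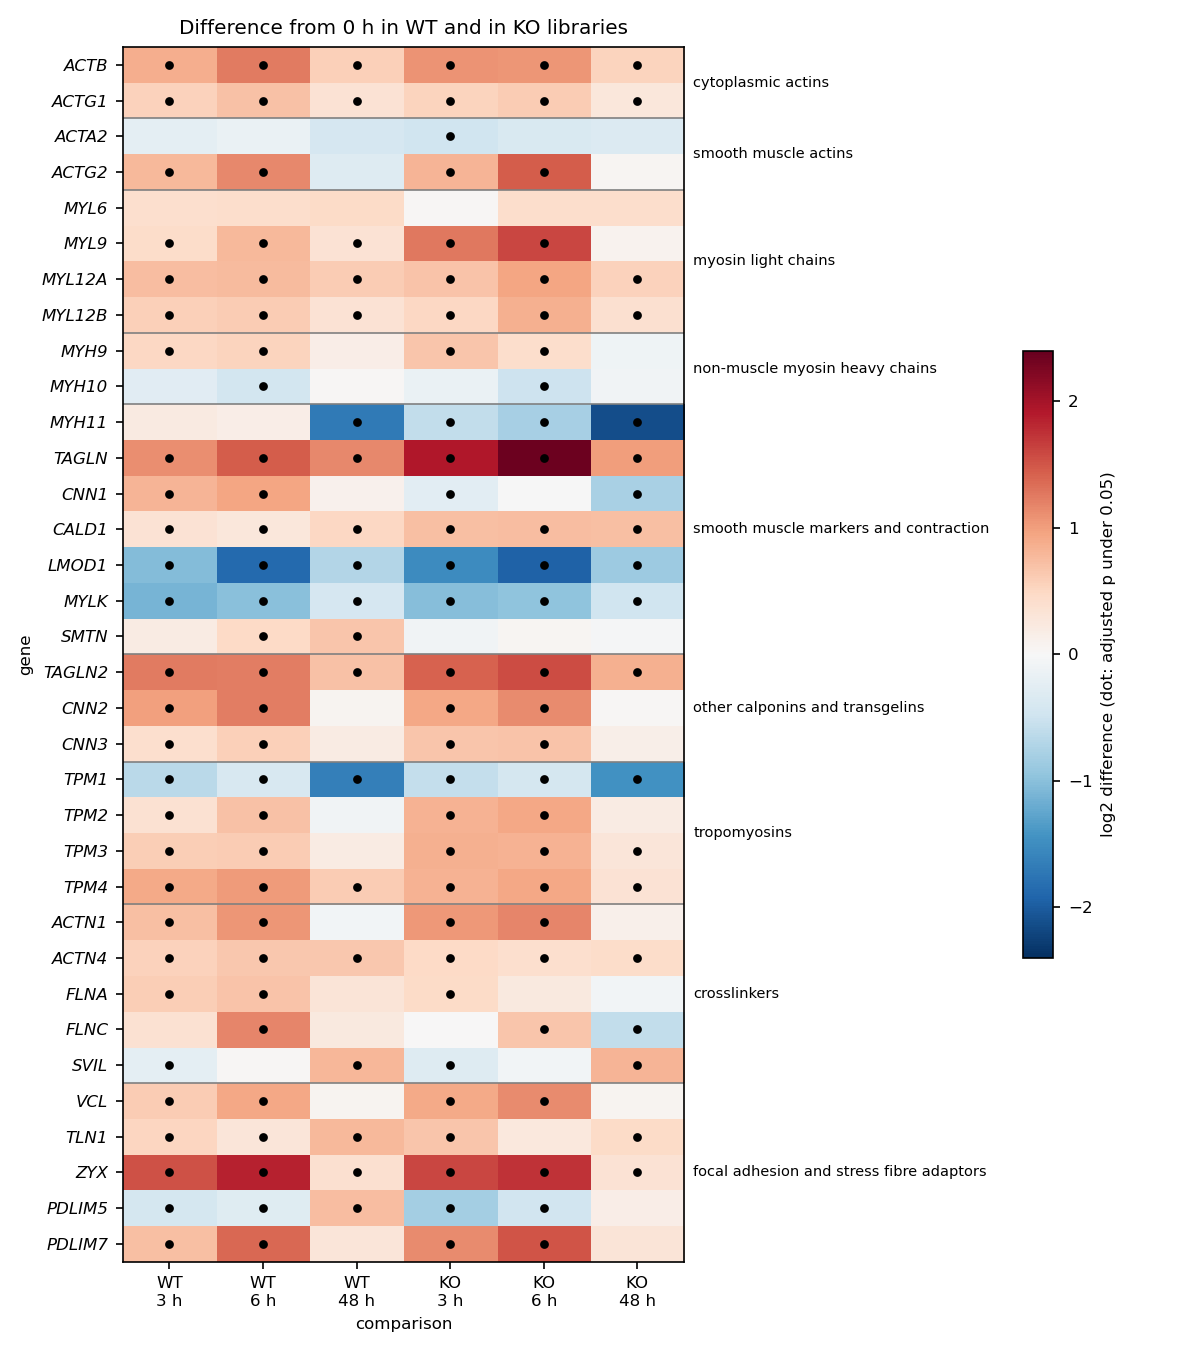
Log2 difference from 0 h for the 34 genes (rows, grouped by role) at 3, 6 and 48 h in WT and in KO libraries (columns, 3 libraries a group). Red is higher, blue lower, and a dot marks an adjusted p under 0.05 in limma. TAGLN in KO at 6 h is the highest value (2.34) and MYH11 in KO at 48 h the lowest (-2.13).

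Libraries labelled KO were compared with their own 0 h. At 3 h 22 members rose and 8 fell (median 0.67 against -0.01 over all genes), where 33.1% of all genes were higher and 32.6% lower. At 6 h 21 rose and 6 fell (median 0.67 against -0.02), where 33.4% were higher and 35.1% lower. At 48 h 13 rose and 6 fell (median 0.15 against 0.00), where 25.4% were higher and 27.4% lower. Without the 3 libraries 33, 31 and 27 members were called, where 74%, 78.7% and 68% of all genes were.

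The KO libraries of 3 and 6 h also differed from those of 0 and 48 h in other genes. The noncoding RNA MEG3, chosen after its values were seen, had means of 929 CPM at 0 h, 0.0717 at 3 h, 0.0718 at 6 h and 236 at 48 h in KO, and 727, 135, 91.4 and 100.2 CPM in WT. CSRP1, a LIM protein that bundles actin filaments, had 12.3 to 14.5 CPM in the KO libraries of 0 h, 0.232 to 0.694 at 3 h, 0.368 to 0.471 at 6 h and 12 to 13.3 at 48 h. In WT it had 3.41 to 16.2 CPM at 0 h and 4.7 to 7.63 CPM at the later hours. What these differences between the libraries contribute to the members' differences over time in KO was not tested.

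In KO the early rise was largest in TAGLN (log2 1.92 at 3 h and 2.34 at 6 h). The rises with the smallest adjusted p at both hours were those of ZYX (1.60 and 1.73), TAGLN2 (1.42 and 1.56), CNN2 (0.93 and 1.14) and MYL9 (1.26 and 1.61). ZYX had 71.3, 81.4 and 83.8 CPM at 0 h, 210, 199 and 293 at 3 h, and 251, 250 and 238 at 6 h. TAGLN2 had 45.6, 47.2 and 50 CPM, then 130, 134 and 108, then 133, 131 and 133. In both genes the libraries of 3 and 6 h were apart from those of 0 h, and those of 3 and 6 h overlapped each other. At 48 h TPM1 had 119, 107 and 114 CPM against 292, 303 and 297 at 0 h (log2 -1.45, limma, adjusted p = 3.37e-13). MYH11 had 0.239, 0.428 and 0.293 CPM against 2.28, 2.17 and 2.07 (log2 -2.13, adjusted p = 2.92e-07).

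Several calls in KO depended on single libraries. FLNA at 3 h (0.46) was lost without the third KO library of 3 h, where it had 2462 CPM against 1359 and 1293 in its mates (adjusted p = 0.0809). The falls of ACTA2 (-0.47), CNN1 (-0.26) and MYH11 (-0.59) at 3 h were lost without 3, 3 and 5 of the 6 libraries in turn (adjusted p up to 0.0914, 0.143 and 0.173). That of SVIL at 3 h was lost in 3 of 6 omissions (limma, adjusted p up to 0.0679). At 6 h MYH9 was lost in 3 and MYH11 in 1 (up to 0.0616 and 0.0554). At 48 h the rises of ACTG1, TPM3, MYL12B and ZYX were lost in 6, 5, 3 and 2 of 6 omissions (up to 0.159, 0.0703, 0.0725 and 0.0702). The fall of LMOD1 at 48 h was lost in 1 (up to 0.0515).

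Against WT at the same hour, 7, 3, 2 and 7 of the 34 members were called lower in KO at 0, 3, 6 and 48 h, and 0 were called higher by limma at any hour. Of all genes, 8.76% were higher and 6.52% lower at 0 h, 0.862% and 1.92% at 3 h, 0.555% and 1.9% at 6 h, and 6.86% and 5.07% at 48 h. The median log2 difference of the members was -0.04 at 0 h, -0.04 at 3 h, -0.08 at 6 h and -0.18 at 48 h, against 0.01, 0.02, 0.01 and -0.01 over all genes. At an unadjusted p under 0.05, 10, 8, 4 and 13 members differed in either direction, where 29.1%, 15.7%, 10.3% and 23.4% of all genes did. With edgeR on the recovered reads 7, 2, 2 and 7 members were called, and 14%, 2.8%, 2.35% and 11.7% of all genes. Fitted on the 6 libraries of each hour alone, 1 member (MYL9) was called at 0 h, 2 at 3 h, 8 at 6 h and 8 at 48 h, where 0.716%, 1.74%, 11.1% and 14% of all genes were. Counted without a test, the genotypes did not overlap in 10 members at 0 h, 9 at 3 h, 19 at 6 h and 19 at 48 h, and in 25.7%, 24.1%, 30.3% and 35.9% of all genes.

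Without the 3 libraries that stood apart, the counts were larger and at 0 h went in both directions. At 0 h 7 members were called higher (25.2% of all genes) and 14 lower (21.9%). The 7 were ACTG1, MYH9, MYH11, CNN1, FLNA, SMTN and SVIL, with log2 differences from 0.17 in SVIL to 0.88 in MYH11. At 3 h 0 were higher (3.55% of all genes) and 10 lower (5.66%), at 6 h 0 (5.51%) and 10 (6.67%), and at 48 h 0 (13.1%) and 12 (10.9%). ACTG2, MYL9 and MYL12B were among those lower at each hour in this set.

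MYL9, a regulatory light chain of smooth and non-muscle myosin, was lower in KO at every hour. WT libraries had 44.6, 54.4 and 44.2 CPM at 0 h, where KO had 16, 19.3 and 19.05. At 3 h the values were 59.3, 61.6 and 60.8 in WT and 43.6, 44.3 and 38.7 in KO, and at 6 h 71.3, 80.8 and 72.7 against 54.2, 50.8 and 51.9. At 48 h WT had 53.4, 57.3 and 76.7 CPM and KO 19, 20.7 and 19.7. The genotypes did not overlap at any hour. The KO level was 0.397 of WT at 0 h (log2 -1.33, SE 0.12; limma, adjusted p = 1.61e-07) and 0.328 at 48 h (log2 -1.61, SE 0.12, adjusted p = 1.84e-09). It was 0.699 at 3 h (log2 -0.52, adjusted p = 0.0121) and 0.703 at 6 h (log2 -0.51, adjusted p = 0.0145). The call at 3 h was lost without WT library 2 or 3 or KO library 3 of that hour (adjusted p up to 0.0637), and that at 6 h without WT library 2 or KO library 2 or 3 (adjusted p up to 0.115), with log2 differences between -0.56 and -0.45 throughout.

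The gap in MYL9 was smaller at 3 and 6 h than at 0 and 48 h. The KO libraries of 3 and 6 h also differed from those of 0 and 48 h in MEG3 and CSRP1. What this difference between libraries contributes to the gap was not tested. From 0 h to 3 h MYL9 rose by 0.81 (SE 0.17) more in KO than in WT on the log2 scale, and to 6 h by 0.82 (SE 0.17) more (limma, adjusted p = 0.00248 and 0.00226). From 0 h to 48 h the difference between genotypes in the change was -0.28 and was not called. MYL9 lies on chromosome 20 (36541484 to 36551447, plus strand, GRCh38 in GENCODE 29). Of the 14 other tested genes within 500 kb, TGIF2, a homeobox repressor, was higher in KO at 0 h and 48 h (0.39 and 0.42) and SAMHD1, a nucleotide hydrolase, at 48 h (0.79). The lowest difference was that of RAB5IF at 48 h (-0.98, adjusted p = 0.259). The closely related light chain MYL12B was lower in KO at 0 h (-0.44) and 3 h (-0.52). It had 152, 173 and 155 CPM in WT at 0 h and 108, 117 and 116 in KO, then 213, 230 and 224 in WT at 3 h and 182, 191 and 107 in KO. Without the third KO library of 3 h its difference there was -0.25 and, as in 3 other single omissions, was not called (adjusted p up to 0.171); at 0 h the call was lost in 5 of 6 omissions (adjusted p up to 0.137).

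CNN1 (calponin 1), which restrains myosin in smooth muscle, rose in WT at 3 and 6 h (0.81 and 0.94), and in KO it fell at 3 h (-0.26) and 48 h (-0.78). WT libraries had 18, 16 and 15 CPM at 0 h, 25.85, 28.3 and 26.3 at 3 h, 27.6, 30.8 and 28 at 6 h, and 15.85, 17.8 and 20.2 at 48 h. KO libraries had 17.3, 18.3 and 18.55 CPM at 0 h, 16, 13.2 and 14.5 at 3 h, 16.5, 16.6 and 17.7 at 6 h, and 10.9, 10 and 11.5 at 48 h. The genotypes overlapped at 0 h and were apart at the 3 later hours. KO was lower by log2 -0.87 (SE 0.10) at 3 h, -0.75 at 6 h and -0.70 at 48 h (limma, adjusted p = 4.28e-06, 3.75e-05 and 4.73e-05), while at 0 h the difference was 0.20 and not called. The change from 0 h in KO minus that in WT was -1.07 (SE 0.15), -0.95 and -0.89 at 3, 6 and 48 h (adjusted p = 3.04e-05, 0.000132 and 0.000355). The calls between genotypes and of the interaction held with any 1 library left out.

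TAGLN was lower in KO before induction and at 48 h, and was not called at 3 or 6 h. At 0 h WT had 63.5, 158 and 122 CPM and KO 53.7, 59.2 and 61.15. At 3 h the values were 215, 223 and 208.5 against 236, 222 and 183, and at 6 h 256, 266 and 277 against 281, 273 and 279. At 48 h WT had 211, 238.5 and 279 CPM and KO 120.2, 121 and 119.5. The groups overlapped at 3 and 6 h and not at 0 or 48 h. The log2 difference was -0.83 (SE 0.19) at 0 h and -0.98 (SE 0.19) at 48 h (limma, adjusted p = 0.00443 and 0.000747), and -0.02 and 0.07 at 3 and 6 h. Fitted on the WT and KO libraries of 0 h alone, the 0 h difference was not called (adjusted p = 0.23), and without the 3 libraries it was -1.19 (adjusted p = 1.41e-12). TAGLN rose by 0.89 (SE 0.26) more in KO than in WT from 0 h to 6 h (adjusted p = 0.0362), a call lost in 11 of 12 omissions of 1 library (adjusted p up to 0.11).

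**Figure D4:**
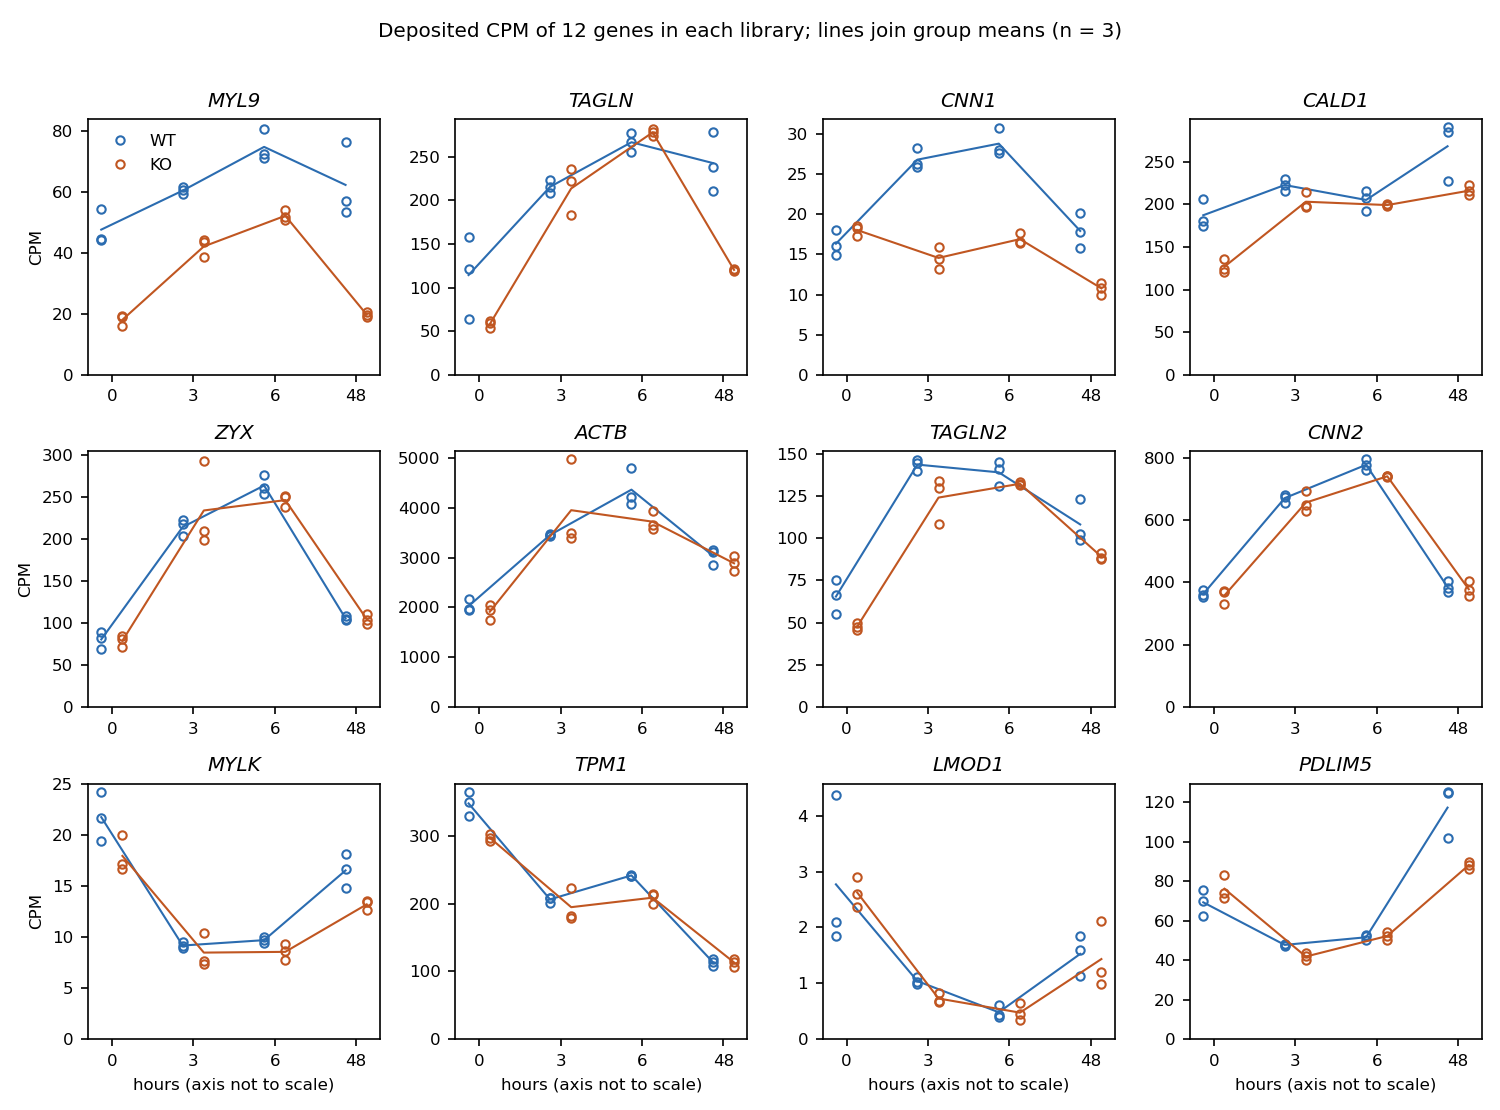
CPM of 12 of the 34 genes in each library (circles, 3 per group) at 0, 3, 6 and 48 h in WT (blue) and KO (orange). Lines join the group means, and each vertical axis starts at 0. MYL9 is lower in KO at every hour, CNN1 from 3 h on, and TAGLN at 0 and 48 h.

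CALD1 was also lower in KO at 0 and 48 h, and at 3 and 6 h was not called (-0.13 and -0.03). At 0 h WT had 181, 207 and 174 CPM and KO 135, 121 and 125 (log2 -0.50, SE 0.08; limma, adjusted p = 0.000203). At 48 h WT had 291, 285 and 228 CPM and KO 222, 215 and 210 (log2 -0.28, SE 0.08, adjusted p = 0.0221). The genotypes did not overlap at either hour. The 0 h call was lost when only those 6 libraries were fitted (adjusted p = 0.0737), as was the 48 h call on its own 6 (adjusted p = 0.0662). The 48 h call was also lost without WT library 1 or 2 or KO library 2 or 3 (adjusted p up to 0.109). CALD1 rose more in KO than in WT from 0 h to 3 h (0.37) and to 6 h (0.47; limma, adjusted p = 0.043 and 0.0118), the first of these lost in 8 of 12 omissions (adjusted p up to 0.129).

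At 0 h TAGLN2 was lower in KO by -0.39 (limma, adjusted p = 0.0118), with 45.6, 47.2 and 50 CPM against 54.9, 75.3 and 66.3 in WT, and no overlap. Its call was lost without WT library 2 or KO library 1 (adjusted p up to 0.0966). ACTG2 (-0.73) and TPM2 (-0.38) were also called at 0 h, but the genotypes overlapped in both. ACTG2 had 3.19, 9.09 and 7.04 CPM in WT and 3.57, 3.4 and 3.04 in KO. Without the 3 libraries it was lower by -1.14 (adjusted p = 2.34e-09). The ACTG2 call was lost in 5 of the 6 omissions (adjusted p up to 0.201) and that of TPM2 in 4 (adjusted p up to 0.253); without WT library 1, the low one, ACTG2 stayed called.

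At 48 h PDLIM5, FLNC and TPM4 were lower in KO besides MYL9, TAGLN, CNN1 and CALD1. PDLIM5, a PDZ and LIM protein of the Z-disc and stress fibres, had 125, 125 and 102 CPM in WT and 89.9, 86.2 and 88.3 in KO (log2 -0.39, SE 0.08; limma, adjusted p = 0.00137). FLNC had 39.5, 41.2 and 44.7 against 26.3, 26.5 and 26.8 (log2 -0.63, adjusted p = 0.0409), and TPM4 695, 714 and 572 against 523, 509 and 527 (log2 -0.32, adjusted p = 0.0236). The genotypes were apart in all 3 genes. The FLNC call was lost when any 1 of the 6 libraries was left out (adjusted p up to 0.151), and that of TPM4 in 5 of 6 omissions (adjusted p up to 0.107). At this hour markers of primitive streak and mesoderm summed to 1750 to 2000 CPM in WT and 1100 to 1250 in KO, with 8 and 6 of 9 at 1 CPM or more. Pluripotent markers summed to 2940 to 3090 CPM in WT and 4170 to 4370 in KO. Their part in the differences at 48 h was not tested.

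The cytoplasmic actins did not follow MYL9. ACTB differed between genotypes by -0.03, 0.17, -0.22 and -0.05 at 0, 3, 6 and 48 h, and ACTG1 by 0.14, 0.11, 0.05 and 0.05, none called. Differences of ZYX (0.03, 0.11, -0.09 and 0.01) and CNN2 (0.03, -0.03, -0.06 and -0.01) were not called either. ZYX at 48 h had 104, 98.6 and 111 CPM in KO and 103, 108 and 104 in WT.

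**Figure D5:**
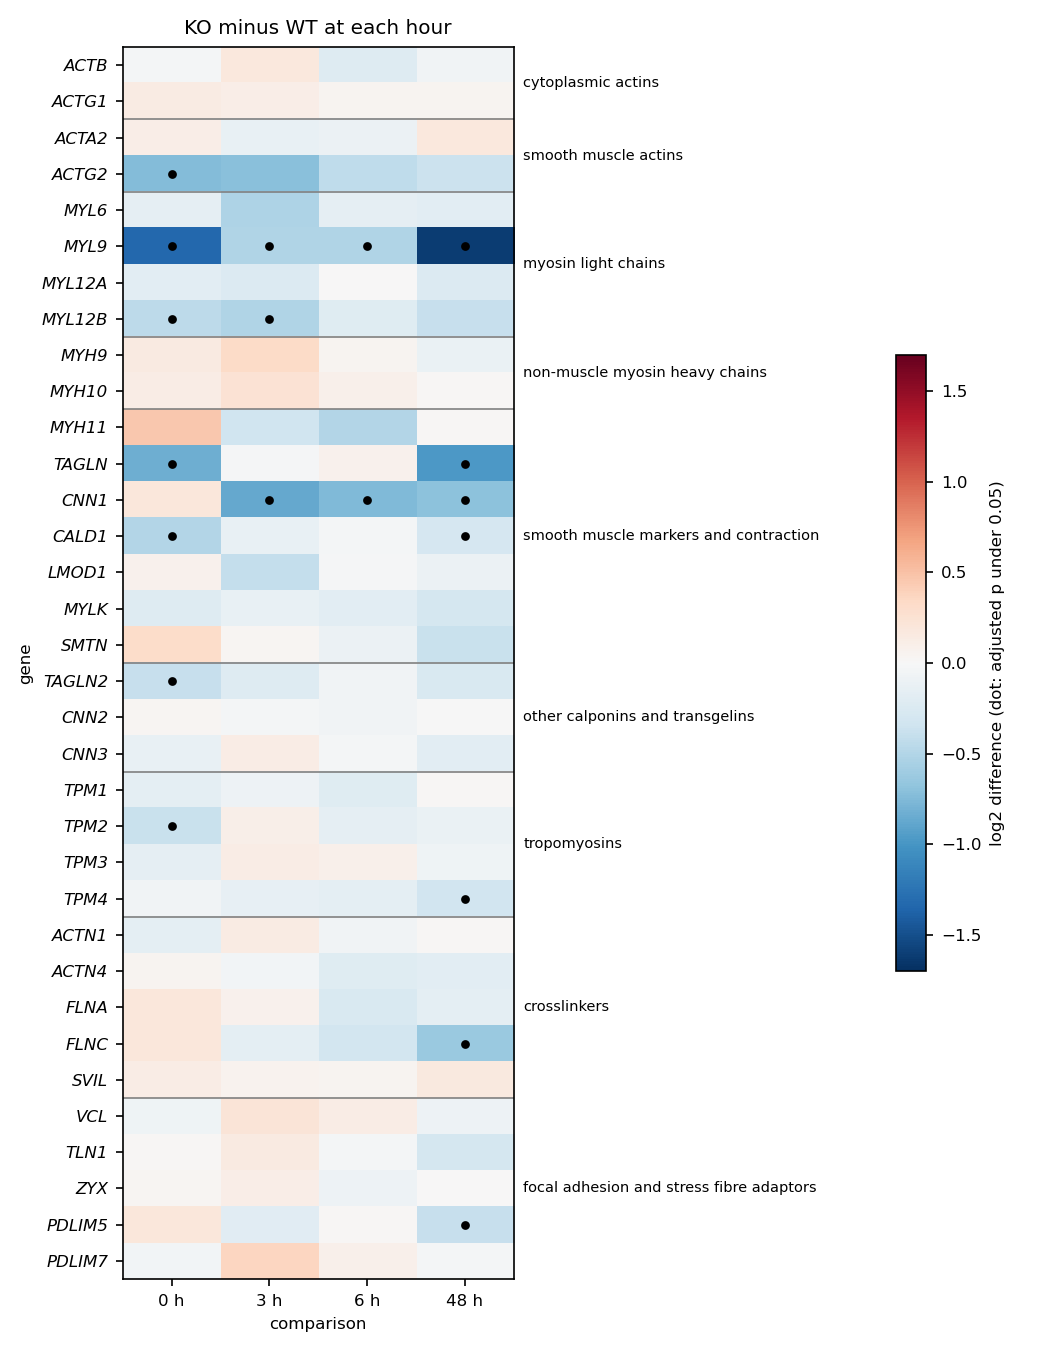
Log2 difference of KO minus WT for the 34 genes (rows, grouped by role) at 0, 3, 6 and 48 h (columns, 3 libraries a genotype). Blue is lower in KO, and a dot marks an adjusted p under 0.05 in limma. All dots are blue, and MYL9 carries one at each hour.

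The change from 0 h was compared between genotypes as an interaction. At 3 h 2 members had a called higher change in KO and 2 a lower one, where 3.59% and 5.45% of all genes did. At 6 h the counts were 3 and 1 (3.12% and 5.46% of all genes), and at 48 h 0 and 3 (3.84% and 3.92%). The median over members was 0.05, -0.05 and -0.06, against 0.00, -0.01 and -0.02 over all genes. Without the 3 libraries 22, 17 and 18 members were called, where 38.2%, 40.1% and 38.7% of all genes were. The change of PDLIM5 in KO minus that in WT was -0.38 (SE 0.11) at 3 h and -0.58 (SE 0.11) at 48 h (limma, adjusted p = 0.0324 and 0.00162). SMTN, which had 10.4, 7.19 and 7.23 CPM in WT at 0 h and 12.2, 12.3 and 15.6 at 48 h, had 8.93, 10.3 and 10.3 and then 9.81, 9.84 and 10.3 in KO. Its groups were apart over time in WT and overlapped in KO, and its interaction was -0.70 (SE 0.21, adjusted p = 0.0439). The calls of PDLIM5 at 3 h and of SMTN were lost in 7 and 8 of 12 omissions (adjusted p up to 0.0994 and 0.127).

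Regulators of the CArG box were measured as well. SRF had a mean of 64.9 ± 3.67 CPM in WT at 0 h, 127 ± 2.2 at 3 h, 134.5 ± 5 at 6 h and 99.5 ± 8.68 at 48 h (SD, n = 3), a rise of 1.07, 1.18 and 0.59 on the log2 scale (limma, adjusted p = 1.37e-09, 1.97e-10 and 9.42e-06). In KO it rose by 1.27 at 3 h and 1.22 at 6 h. MRTFB fell at 3 h in both genotypes (-1.24 in WT and -1.27 in KO). Of the 7 genes of SRF and its cofactors, 1 rose and 2 fell at 3 h in WT, where 28.6% of all genes were higher and 27.1% lower. MYOCD, the smooth muscle coactivator of SRF, had 0.582 to 4.67 CPM in WT and 0.551 to 0.86 in KO at 0 h (log2 -1.05, adjusted p = 0.0479 in limma), and 4.9 to 5.99 and 6.18 to 7.83 at 6 h. ELK1, an SRF partner of growth factor signalling, was higher in KO at 0 h (0.68) and 48 h (0.50).

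Among 18 targets of SRF and MRTF outside the members, SRF included, 12 rose and 3 fell at 3 h in WT (median 0.96) and 12 and 3 in KO (median 1.22). The shares of all genes were 28.6% higher and 27.1% lower in WT (median 0.01), and 33.1% and 32.6% in KO (median -0.01). At 6 h the counts were 10 and 3 in WT (31.1% and 31% of all genes) and 10 and 4 in KO (33.4% and 35.1%). At 48 h 7 rose and 9 fell in WT (26.8% and 26.5%). FHL2, a LIM coactivator, rose by 1.45 at 3 h and 1.84 at 6 h in WT. The striated actins ACTC1 and ACTA1 rose by 1.94 and 2.14 at 6 h in WT and were lower in KO at that hour (-0.52 and -0.69). At 0 h ACTC1 was higher in KO (0.71). CSRP1 was lower in KO at 3 h (-3.36) and 6 h (-3.48), with the values given above. Against WT, 4 of the 18 were higher and 1 lower at 0 h (8.76% and 6.52% of all genes), and 1 was lower at 3 h (1.92%). At 6 h 4 were lower (1.9%), and at 48 h 2 were higher and 2 lower (6.86% and 5.07%).

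Of 33 genes of actin assembly and turnover, 17 rose and 5 fell at 3 h in WT and 21 and 3 in KO. The shares of all genes were 28.6% higher and 27.1% lower in WT, and 33.1% and 32.6% in KO. WDR1, a partner of cofilin, rose by 1.21 and LCP1 (plastin), a bundling protein, by 1.41 in WT. Against WT, 1 of the 33 was called at 0 h (ARPC5, a subunit of the ARP2/3 complex, -0.25), where 8.76% of all genes were higher and 6.52% lower. A list of 15 genes held targets of YAP and TEAD, regulators of transcription that respond to cell tension, together with YAP1, WWTR1 and TEAD1. Of these 15, 7 rose and 5 fell at 3 h in WT and 7 and 4 in KO, against the same shares of all genes. CCN2, a matricellular target, fell by 1.20 at 3 h and 2.50 at 48 h in WT, and ANKRD1, a titin-binding repeat protein, was lower in KO at 48 h (-1.92).

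Markers of other cell types that can make contractile proteins were summed in each library. The 9 markers of vascular smooth muscle and pericytes summed to 168 to 192 CPM in WT and 170 to 174 in KO at 0 h, and to 113 to 129 and 113 to 118 at 48 h. At 0 h 8 of these 9 were at 1 CPM or more in WT and 7 in KO, and at 48 h 6 in each. The 11 markers of cardiac and striated muscle summed to 15.7 to 73.6 CPM in WT and 57.3 to 110 in KO at 0 h. Of these, 5 were at 1 CPM or more in each genotype, and MYH7, MYL4 and NKX2-5 were at or under the limit of detection. The fibroblast list of 8 genes summed to 494 to 871 CPM in WT and 636 to 665 in KO at 0 h. In each genotype 5 of the 8 were at 1 CPM or more, and DCN and LUM were at or under that limit in both. At 48 h the 4 endothelial markers found summed to 246 to 333 CPM in WT and 361 to 386 in KO, where at 0 h they summed to 344 to 436 and 447 to 504. The sum of the 7 markers of amnion and simple epithelium was higher after induction. In both genotypes 4 of the 7 were at 1 CPM or more at 0 h, 5 at 3 and 6 h, and 3 at 48 h. In WT the 7 markers summed to 236 to 363 CPM at 0 h, 376 to 410 at 3 h, 453 to 513 at 6 h and 392 to 507 at 48 h. In KO they summed to 235 to 288, 396 to 434, 399 to 455 and 420 to 443. TFAP2B was at or under the limit in every group. Their part in the members' differences was not tested.

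In the table of counts per transcript, 80 of the 447 transcripts of members, in 28 members, passed the filter. In 24 of the 34 members these counts came to under 10% of the gene's reads in every library, so the table holds a small part of the reads of most members. Whether reads shared between transcripts were left out is not given in the sources used here and was not tested. Of all transcripts, 3.27% were called between genotypes at 0 h, 0.872% at 3 h, 0.671% at 6 h and 2.55% at 48 h (edgeR). The tested protein-coding transcript of MYL9 had 551, 563 and 434 counts in WT and 198, 195 and 192 in KO at 0 h (log2 -1.34, edgeR, adjusted p = 1.18e-05). At 48 h it had 616, 633 and 660 against 230, 267 and 237 (log2 -1.43, adjusted p = 1.47e-06). The counts of the genotypes were apart at both hours. It was also called at 3 h (-0.65, adjusted p = 0.0482; up to 0.359 with 1 library left out, lost in 4 of 6 omissions).

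Further transcripts called at 48 h were TAGLN-208 and ACTN4-206, both annotated as retaining an intron. TAGLN-208 had 60, 30 and 58 counts in WT and 11, 16 and 8 in KO (log2 -2.12, edgeR, adjusted p = 0.000795). ACTN4-206 had 295, 165 and 184 counts against 113, 138 and 128 (log2 -0.80, adjusted p = 0.02365), a call lost in 4 of 6 omissions (adjusted p up to 0.157). At 6 h 0 member transcripts were called by edgeR or DESeq2, with 2 at an unadjusted p under 0.05 in edgeR (4.65% of all transcripts).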

How the data were processed

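Messenger RNA of 24 libraries was sequenced with the Illumina TruSeq stranded mRNA kit, per the labels' protocols. The gene table deposited by the authors holds CPM, reads per gene scaled to the same total in every library and not divided by length. Lower values, the only ones checked, were all whole multiples of 1 read (within 0.1 read). Higher values were rounded, and whole reads were recovered (29896358 to 50451908 per library). Raw counts per transcript, the other table the authors deposited, come to 22.08% to 26.36% of those reads. Build hg38 and DESeq2 are named in the submitters' processing notes. The aligner, the counter, its strand setting and the annotation release are not given in the sources used here. Symbols and coordinates came from GENCODE 29 by gene ID, with all 34 members matched under other ID versions, and promoters from RefSeq.

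Groups came from the labels. Genes were kept by edgeR's filterByExpr (10 reads, 15 in total), leaving 19835. Log2(CPM divided by the TMM factor + 0.25) was fitted with limma (3.58.1, trend) over all 8 groups, with 13 two-sided comparisons, Benjamini-Hochberg adjustment over all genes and a threshold of 0.05. Fold changes on this scale understate those of low genes. Deposited transcript counts (31301 tested) were fitted with edgeR (4.0.16), with DESeq2 (1.42.0) as an alternative, in R 4.3.3. The scripts were tested on simulated data. Values of single libraries are deposited CPM. CPM per kb divides by exon length. Libraries within groups differed beyond counting noise (mean chi-square per gene at least 3.27).

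Every library was given for up to 4 called members with the smallest adjusted p in each comparison, other members by role, and up to 3 called genes of each other list. A further list is not reported here. The members and lists were chosen with earlier results of these data known. Alternatives were other scaling, no filter, a pseudocount of 1, edgeR on recovered reads, only the groups compared, the replicate number as a block, and libraries left out.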

Additional observations from a re-analysis of the deposited data

Results flagged for a closer look

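The following differences passed the test of the difference itself, that is, the change from 0 h in KO minus that in WT (limma, log2 scale, 3 libraries a group). MYL9 had 0.814 at 3 h and 0.823 at 6 h. CNN1 had -1.07 at 3 h, -0.95 at 6 h and -0.89 at 48 h. CALD1 had 0.37 at 3 h and 0.47 at 6 h. PDLIM5 had -0.38 at 3 h and -0.58 at 48 h. TAGLN had 0.89 at 6 h, and SMTN had -0.70 at 48 h. Their adjusted p-values and the libraries they depend on are given with each gene above. All of them share the 0 h libraries of both genotypes, among them the WT library that stood apart. Those of 3 and 6 h also set KO libraries against KO libraries of 0 h that differed from them in MEG3 and CSRP1. What this contributes was not tested.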

How the results depend on the processing

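No called member changed direction under any alternative run. Without the 3 libraries that stood apart the counts were 21, 10, 10 and 12 members between genotypes at 0, 3, 6 and 48 h, 22, 17 and 18 for the interactions at 3, 6 and 48 h, and 12, 2 and 6 transcripts at 0, 6 and 48 h. Fitting only the groups compared gave 1 member at 0 h, 8 at 6 h and 2 for the interaction at 3 h. DESeq2 called 2 transcripts at 0 h and 8 at 48 h. At 3 h, RLE factors gave 0 transcripts and no filter 2. The cause was not tested. Where no share of all genes or transcripts is given above for a run, its count is not read as a result about the members.

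With 1 library left out, the genotypes differed in 3 to 11 members at 0 h, 1 to 3 at 3 h, 1 to 2 at 6 h and 4 to 6 at 48 h. The interactions gave 2 to 12 at 3 h, 3 to 10 at 6 h and 2 to 7 at 48 h, each highest without WT library 1 of 0 h. Transcripts gave 1 to 6 at 0 h, 0 to 2 at 3 h and 2 to 5 at 48 h. Against 0 h, counts were 26 to 30, 28 to 31 and 17 to 22 in WT, and 27 to 31, 26 to 27 and 15 to 17 in KO. The shares of all genes or transcripts called are not given for these runs or for the replicate block. These counts are therefore not read as results about the members.

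With the replicate block, 2 members were called between genotypes at 3 h and 7 at 0 h. Same-numbered libraries did not deviate together (0 of 30 correlations over 0.1, from -0.183 to 0.0592), so the numbers do not pair them. Low genes such as MYH11 and LMOD1 are limited by depth.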
